A study of Mus musculus with 6 samples.

Results

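The genes of the mouse mitochondrial chromosome were examined as a unit in RNA sequencing libraries of gastrocnemius, the large calf muscle. Members were all rows of the count tables whose listed exons lie on the chromosome named MT, which gave 35 of 49315 genes. They are 13 mRNAs and 22 tRNAs. The mitochondrial genome encodes 37 genes, and the ribosomal RNAs mt-Rnr1 and mt-Rnr2 were not analysed here. The 3 libraries labelled mKO came from mice with a muscle-specific knockout of Hnrnpu, and the 3 libraries labelled WT came from wild-type mice. Both groups were 3 months of age, of mixed C57BL/6 and 129 background, and no treatment is named in the labels. The promoter that drives the deletion, the allele and whether animals were pooled are not stated in the sources used here. The labels number the replicates and do not say that each is a separate animal, so p-values reflect variation among the libraries, which may be technical.

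Mitochondrial DNA is a compact circle transcribed from promoters on both strands into long precursors. The heavy-strand transcript carries most mRNAs, both rRNAs and most tRNAs, and the light-strand transcript carries mt-Nd6 and the remaining tRNAs. The tRNAs lie between the coding sequences, and their excision by RNase P and the 3′ processing enzyme Elac2 releases the flanking mRNAs. The 13 proteins are subunits of respiratory chain complexes I, III and IV and of the ATP synthase, complex V, which muscle fibres use for sustained ATP production. Of the members, 26 are annotated on the heavy-strand transcript, 12 mRNAs and 14 tRNAs, and 9 on the light-strand transcript, mt-Nd6 and 8 tRNAs. Strand here is that of the annotation: the kit named in the labels does not keep strand, so reads from a gene and from the opposite transcript cannot be told apart.

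The tRNA genes that carried the results are shown with the anticodon in capitals, 5′ to 3′ in the sense of the tRNA and in DNA letters, from the GENCODE M21 transcripts of GRCm38. The tRNAs in the list up to mt-Tt were lower in mKO libraries, and mt-Tl1 and mt-Tp were not called. The isoleucine tRNA mt-Ti lies at MT:3706-3774 on the plus strand, the glutamine tRNA mt-Tq at MT:3772-3842 on the minus strand and the methionine tRNA mt-Tm at MT:3845-3913 on the plus strand. The tryptophan tRNA mt-Tw lies at MT:4950-5016 and the threonine tRNA mt-Tt at MT:15289-15355, both on the plus strand. The leucine tRNA mt-Tl1 lies at MT:2676-2750 on the plus strand and the proline tRNA mt-Tp at MT:15356-15422 on the minus strand.
mt-Ti: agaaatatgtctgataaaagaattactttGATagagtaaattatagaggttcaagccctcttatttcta
mt-Tq: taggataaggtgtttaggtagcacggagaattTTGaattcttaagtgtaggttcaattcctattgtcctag
mt-Tm: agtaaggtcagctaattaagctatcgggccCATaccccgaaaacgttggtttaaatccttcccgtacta
mt-Tw: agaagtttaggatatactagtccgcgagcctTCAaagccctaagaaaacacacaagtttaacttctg
mt-Tt: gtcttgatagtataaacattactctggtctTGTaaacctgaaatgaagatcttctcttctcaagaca
mt-Tl1: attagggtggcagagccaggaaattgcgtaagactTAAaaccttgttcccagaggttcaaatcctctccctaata
mt-Tp: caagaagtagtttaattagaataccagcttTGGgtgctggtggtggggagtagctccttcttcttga

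Neighbouring members share bases or abut, which bears on how reads were assigned. The 3′ ends of mt-Nd5 and mt-Nd6, on opposite strands, overlap by 14 bases, shown in capitals in the last 30 bases of each gene, MT:13536-13565 on the plus strand and MT:13552-13581 on the minus strand. The genes mt-Ti and mt-Tq also overlap end to end on opposite strands, as do mt-Atp8 with mt-Atp6 and mt-Nd4l with mt-Nd4 on the same strand. The annotated mt-Co3, mt-Nd4 and mt-Cytb end in a lone T after their last full codon, and polyadenylation completes such stop codons in mammalian mitochondria. How the authors' counting treated reads over shared bases is not given in the sources used here, so counts of these pairs are uncertain.
mt-Nd5: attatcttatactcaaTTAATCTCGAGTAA
mt-Nd6: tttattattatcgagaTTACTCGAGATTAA

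Library totals were 32108684 to 38095211 counts in mKO and 34871043 to 42344238 counts in WT libraries. Scaling matters for every level reported. The trimmed-mean (TMM) factors of edgeR were 1.15 to 1.2 in mKO and 0.845 to 0.859 in WT libraries, and with library totals in their place the median log2 value over all tested genes, 0.023, moved up by 0.46. CPM, the counts scaled to a common library size, use TMM-scaled sizes except where library totals are named. Hnrnpu itself averaged 208 ± 2.92 CPM in mKO and 238 ± 7.59 CPM in WT libraries (SD, n = 3 each), a log2 fold change of -0.20 (SE 0.10, adjusted p = 0.147). With library totals it was called higher, at 0.27 (adjusted p = 0.0405). A count summed over all exons of the gene does not check a deletion of part of it. All 12 muscle fibre markers on the list, among them Ckm and Acta1, had counts.

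The mitochondrial chromosome took a smaller part of the counts in mKO muscle. On the TMM scale, mRNAs annotated on either strand were called lower. The light strand holds only mt-Nd6, which was not called with library totals. Members made up 3.52%, 3.46% and 3.63% of counts in mKO replicates 1 to 3, against 5.60%, 5.64% and 5.95% in WT replicates 1 to 3. The groups did not overlap. On the TMM scale the summed level was 30133 ± 1180 CPM in mKO and 67331 ± 2731 CPM in WT libraries (SD, n = 3 each), so that mKO libraries held 44.8% of the WT level. As a share of library totals they held 61.8%. The exact two-sided permutation test gave p = 0.1 on both scales, the smallest value that 3 against 3 libraries allow. In bulk muscle, fewer cells of a type and less RNA per cell cannot be told apart.

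Of the 35 members, 25 passed the expression filter, all 13 mRNAs and 12 tRNAs. By edgeR's quasi-likelihood test with Benjamini-Hochberg adjustment over 16650 genes, 18 of the 25 were lower in mKO libraries, none was higher and 7 were not called. The background was 18.9% of all genes called lower and 18.2% called higher, 37.0% in either direction. With library totals 15 members were lower and none was higher, against backgrounds of 6.75% lower and 49.0% higher. The median log2 fold change was -1.06 over the tested members, -1.19 over the mRNAs and -0.84 over the tested tRNAs, beside 0.023 over all genes. The 3 mKO libraries lay below the 3 WT libraries in 19 tested members, where 24% of all genes (4002 of 16650) showed this and 25.3% showed the opposite. With library totals 16 members did so, where 8.06% of all genes did.

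**Figure D1:**
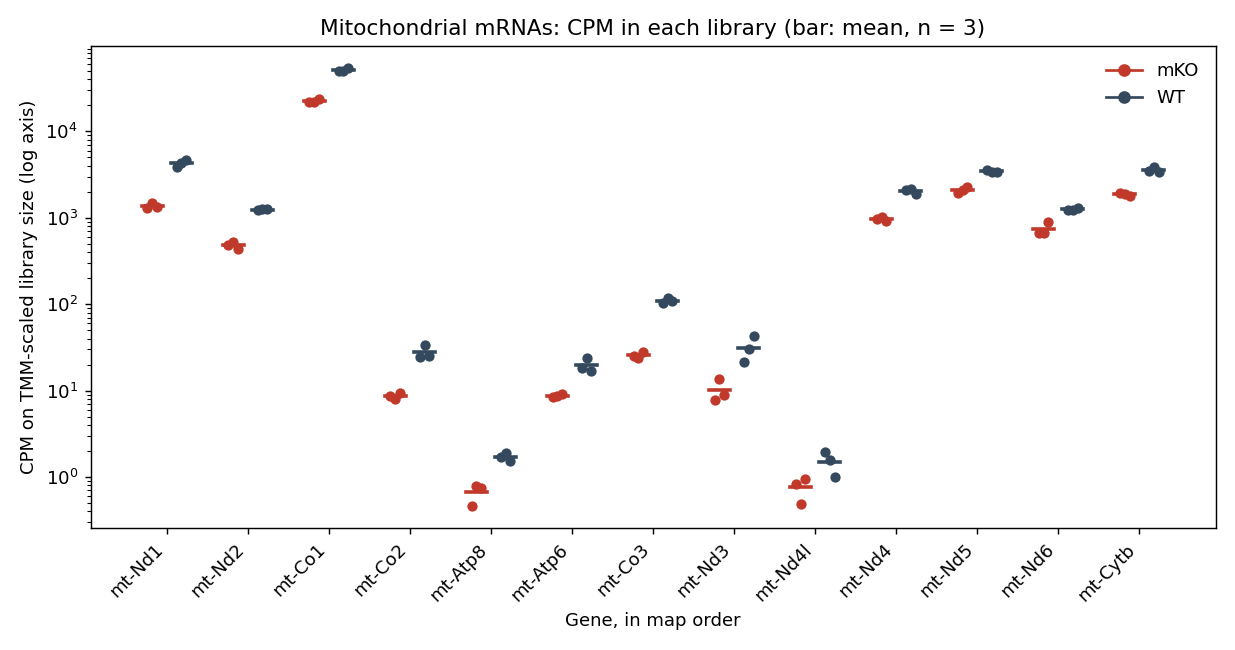
CPM on the TMM-scaled library size (log axis) of the 13 mitochondrial mRNAs in map order; each point is a library (mKO left, WT right) and each bar a mean of 3. The mKO points lie below the WT points in every mRNA. Means are highest for mt-Co1, with 22517 CPM in mKO and 51234 CPM in WT. They are lowest for mt-Atp8 in mKO, with 0.668 CPM, and for mt-Nd4l in WT, with 1.5 CPM.

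Of the mRNAs, all 13 fell in mKO libraries on the TMM scale, the 12 of the heavy-strand transcript and mt-Nd6. With library totals the calls of mt-Nd4l (adjusted p = 0.242), mt-Nd5 (adjusted p = 0.0633) and mt-Nd6 (adjusted p = 0.0533) were lost, and the other 10 remained lower. The fall ranged from a log2 fold change of -0.72 for mt-Nd5 to -2.10 for mt-Co3. The genes are described by the complex their proteins join.

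Complex I, the NADH dehydrogenase at which electrons enter the chain, takes subunits from 7 mitochondrial mRNAs. The core subunit mt-Nd1 (ENSMUSG00000064341, MT:2751-3707, plus strand) had 1284, 1493 and 1315 CPM in mKO replicates 1 to 3, against 3852, 4299 and 4614 CPM in WT replicates 1 to 3. The groups were far apart. Its log2 fold change was -1.64 (SE 0.12, adjusted p = 1.3e-06). A membrane-arm subunit, mt-Nd2, averaged 485 ± 45.9 CPM in mKO and 1238 ± 21.3 CPM in WT libraries (SD, n = 3 each), a log2 fold change of -1.35. mt-Nd3 averaged 10.2 ± 3.17 CPM in mKO and 31.4 ± 10.8 CPM in WT libraries, a log2 fold change of -1.63, and was among the most variable mRNAs between replicates of a group.

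The complex I members toward the far end of the heavy-strand transcript, and mt-Nd6 of the light-strand transcript, had smaller fitted falls. mt-Nd4, a proton-pumping subunit, averaged 977 ± 49.6 CPM in mKO and 2041 ± 121 CPM in WT libraries, a log2 fold change of -1.06. mt-Nd5, another proton-pumping subunit, had 1952, 2083 and 2257 CPM in mKO replicates 1 to 3, against 3611, 3378 and 3355 CPM in WT replicates 1 to 3. The groups did not overlap, and the log2 fold change was -0.72 (SE 0.11, adjusted p = 0.000318). mt-Nd6, the only mRNA of the light-strand transcript (ENSMUSG00000064368, MT:13552-14070, minus strand), had 665, 667 and 882 CPM in mKO replicates 1 to 3, against 1237, 1221 and 1309 CPM in WT replicates 1 to 3. mKO replicate 3 was the highest of its group and still below each WT library, and the log2 fold change was -0.77 (SE 0.13, adjusted p = 0.000594). mt-Nd4l had few counts, 38, 22 and 35 in mKO replicates 1 to 3 against 58, 51 and 36 in WT replicates 1 to 3. Its call (log2 fold change -0.98, SE 0.36, adjusted p = 0.049) was lost under 8 of 12 alternatives.

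Complex III and complex IV pass electrons on to oxygen. Cytochrome b, encoded by mt-Cytb and the mitochondrial subunit of complex III, had 1956, 1863 and 1783 CPM in mKO replicates 1 to 3, against 3516, 3865 and 3412 CPM in WT replicates 1 to 3. The groups were well apart, and the log2 fold change was -0.95 (SE 0.11, adjusted p = 4.06e-05). The catalytic core of complex IV, mt-Co1, was the most abundant member (ENSMUSG00000064351, MT:5328-6872, plus strand), with 21896, 21859 and 23797 CPM in mKO replicates 1 to 3 against 49491, 49913 and 54297 CPM in WT replicates 1 to 3. Its log2 fold change was -1.19 (SE 0.12, adjusted p = 1.03e-05). It made up 74.7 ± 0.87% of mitochondrial counts in mKO and 76.1 ± 0.95% in WT libraries, so every sum over the members is mostly a sum over mt-Co1.

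The other complex IV members had the largest fitted falls among the mRNAs. Both have near-complete copies among annotated nuclear transcripts and low levels per kilobase, as described below, so their counts are uncertain. mt-Co2, which carries the copper site that accepts electrons from cytochrome c, had 8.72, 7.90 and 9.41 CPM in mKO replicates 1 to 3, against 24.4, 33.8 and 25.4 CPM in WT replicates 1 to 3. The log2 fold change was -1.69 (SE 0.15, adjusted p = 4.35e-06). mt-Co3, the remaining core subunit (ENSMUSG00000064358, MT:8607-9390, plus strand), had 25.3, 23.8 and 27.7 CPM in mKO replicates 1 to 3, against 102, 119 and 108 CPM in WT replicates 1 to 3. mKO libraries were 4.29-fold lower, with a log2 fold change of -2.10 (SE 0.12, adjusted p = 1.67e-07). Complex V takes 2 mitochondrial subunits of its membrane part. mt-Atp6 averaged 8.71 ± 0.356 CPM in mKO and 19.6 ± 3.62 CPM in WT libraries, and mt-Atp8 averaged 0.668 ± 0.178 CPM in mKO and 1.71 ± 0.181 CPM in WT libraries, with log2 fold changes of -1.17 and -1.36.

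**Figure D2:**
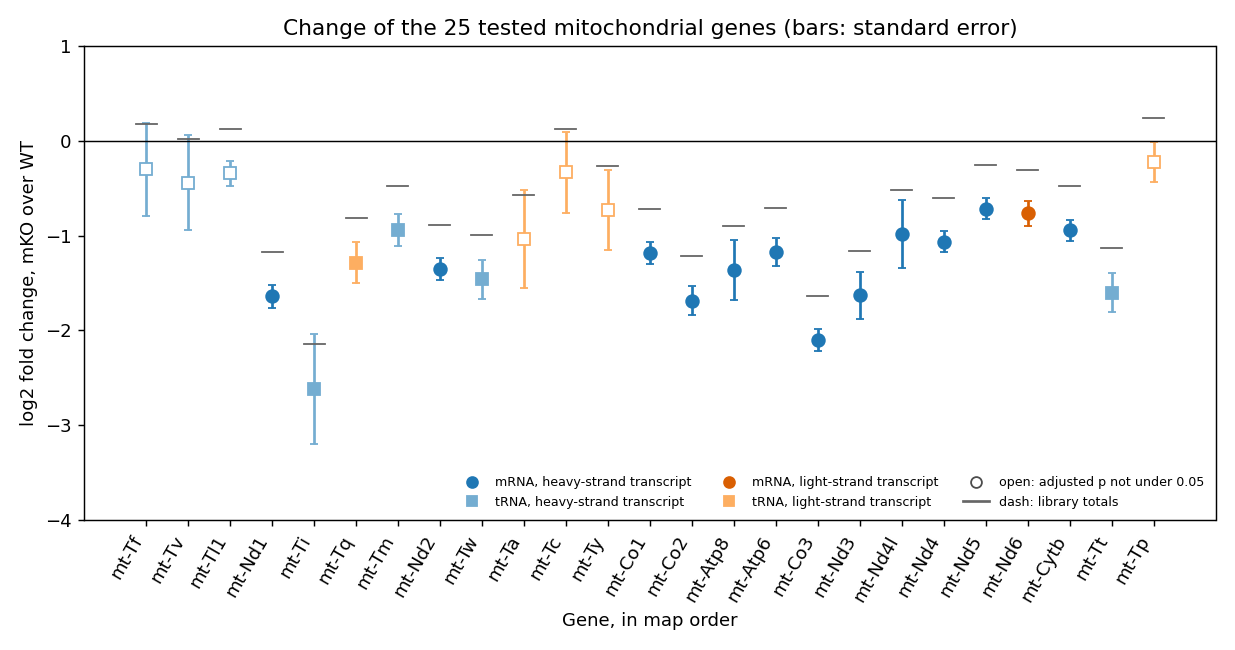
log2 fold change, mKO over WT, of the 25 tested members in map order, with standard errors; circles are mRNAs and squares tRNAs, blue marks the heavy-strand and orange the light-strand transcript, open symbols were not called, and dashes give the value with library totals. All 13 mRNAs are filled, from -0.72 to -2.10, and 7 of the 12 tRNAs are open.

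Among 6 abundant heavy-strand mRNAs, those with less than 97% of their sequence windows in nuclear copies and without mt-Atp8 (mt-Nd1, mt-Nd2, mt-Co1, mt-Nd4, mt-Nd5 and mt-Cytb), the fall was smaller the later the gene lies in the transcript, with mt-Cytb out of order. Across these 6 genes the start position and the log2 fold change correlated at a Spearman rho of 0.94 and a Pearson r of 0.88, and across all 12 heavy-strand mRNAs at a rho of 0.65 and an r of 0.48. The 6 genes were picked after their values were seen. These are descriptions across genes, which share libraries and a precursor RNA and are not independent.

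Levels can be compared between genes only per length. The order of the mRNAs in CPM per kilobase differed between the groups in few places. In mKO libraries mt-Co1 led with 14574, followed by mt-Cytb with 1632, mt-Nd1 with 1425, mt-Nd6 with 1422, mt-Nd5 with 1150, mt-Nd4 with 709 and mt-Nd2 with 467. In WT libraries mt-Co1 led with 33161, followed by mt-Nd1 with 4446, mt-Cytb with 3145, mt-Nd6 with 2420, mt-Nd5 with 1890, mt-Nd4 with 1481 and mt-Nd2 with 1193. The ranges of mt-Cytb, mt-Nd1 and mt-Nd6 ran into each other in mKO libraries, while in WT libraries the ranges of these neighbours did not overlap. The remaining mRNAs lay far lower, from 32.7 for mt-Co3 down to 2.55 for mt-Nd4l in mKO and from 140 for mt-Co3 down to 5.06 for mt-Nd4l in WT libraries.

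Apart from mt-Atp8, these low mRNAs are those with near-complete copies among annotated nuclear transcripts. Every 50-base window of each member was looked up in the annotated nuclear transcripts. All windows of mt-Co2 were found there, 99.9% of mt-Co3, 99.5% of mt-Atp6, 98.8% of mt-Nd4l and 98.0% of mt-Nd3. These 5 mRNAs had 5.06 to 140 CPM per kilobase in WT libraries, whereas 7 of the others had 1193 to 33161. mt-Atp8 was at 8.40 CPM per kilobase in WT libraries, and none of its windows was found in an annotated transcript. The chromosome 1 stretch between the copies of mt-Co2 and mt-Atp6, its mRNA neighbours, was not searched. Intermediate shares were 62.2% for mt-Nd4, 51.1% for mt-Co1, 8.19% for mt-Nd2 and 7.61% for mt-Nd5, and no window of mt-Nd1, mt-Nd6, mt-Cytb or any tRNA was shared. The search covered annotated transcripts and not the genome between them. How multi-mapping reads were handled is not stated in the sources used here, and the part of shared sequence in these low counts was not tested.

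**Figure D3:**
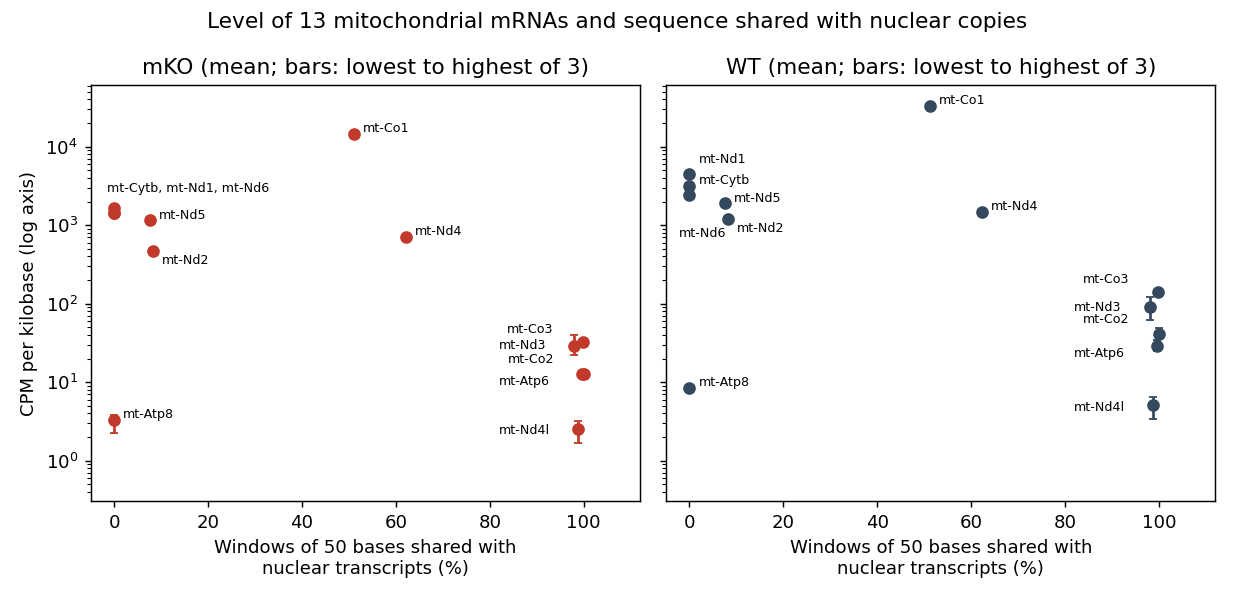
CPM per kilobase (log axis) of the 13 mitochondrial mRNAs in mKO (left) and WT (right) libraries against the percent of their 50-base windows found in annotated nuclear transcripts; points are means and bars run from the lowest to the highest of 3 libraries. The 5 mRNAs at 98.0% or more lie at 2.55 to 32.7 in mKO and 5.06 to 140 in WT libraries. mt-Atp8 lies as low, with no window found in the annotated transcripts searched.

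Most copies sit in a block on the minus strand of chromosome 1, from Gm28439 at 24611535 to Gm29216 ending at 24616197 (GRCm38). Gm10925 is identical to mt-Atp6 over 678 bases, Gm28661 to mt-Co2 over 681, Gm28437 to mt-Co3 over 783, Gm28439 to mt-Nd4 over 876 and Gm10222 to mt-Nd4l over 294. Gm28438 carries the lone difference T3C against 345 bases of mt-Nd3, with positions counted from the start of the mitochondrial gene. mt-Atp8 lies between members that are copied in this block. Gm29216 matches the last 492 bases of mt-Co1 apart from T1056A, C1057T, A1059G, A1060G, C1062A and A1066T, counted from 1 at the start of mt-Co1. The differing bases are in capitals in the stretch from position 1054 to 1113, MT:6381-6440 on the plus strand, shown because within those 492 bases the genes differ nowhere else.
mt-Co1: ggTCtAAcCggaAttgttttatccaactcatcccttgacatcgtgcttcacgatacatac
Gm29216: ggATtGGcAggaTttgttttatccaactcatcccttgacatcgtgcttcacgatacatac

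Of the 9 rows of nuclear copies, 5 were lower in mKO libraries, 3 were not called and 1 was not tested, where 18.9% of all genes were lower. The same 5 were lower with library totals, where 6.75% of all genes were lower. Gm28437 had 195, 178 and 198 counts in mKO replicates 1 to 3, against 520, 445 and 639 counts in WT replicates 1 to 3, a log2 fold change of -1.84 (adjusted p = 4.85e-06) beside -2.10 for mt-Co3. Gm28438, Gm28661, Gm29216 and Gm10925 were also lower, at -2.07, -1.49, -1.05 and -1.02. Gm28439 (adjusted p = 0.247), Gm13339, a copy of part of mt-Nd2 (adjusted p = 0.0763), and Gm4076, a copy of part of mt-Nd5 (adjusted p = 0.152), were not called, and Gm10222 was not tested. Since the sequences are identical over long stretches, which of the paired genes a read came from cannot be told apart. The falls of mt-Nd1, mt-Cytb and mt-Nd6, at -1.64, -0.95 and -0.77, were measured with no window shared with an annotated nuclear transcript.

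The tRNAs were counted at low levels and most were not called. Each is at most 75 bases long, and reads of a precursor or a neighbouring mRNA that run into a tRNA gene cannot be told apart from mature tRNA. Their sum was 1802, 1394 and 1187 counts in mKO replicates 1 to 3, against 2119, 1925 and 2791 counts in WT replicates 1 to 3. As a level this was 34.3 ± 4.65 CPM in mKO and 69.2 ± 9.61 CPM in WT libraries (SD, n = 3 each), without overlap (exact two-sided permutation p = 0.1, the smallest possible). Of the 12 tested tRNAs, 5 fell, none rose and 7 were not called, and the same number fell with library totals. On the heavy-strand transcript 4 of 7 tested tRNAs fell, and on the light-strand transcript 1 of 5. Of all genes, 18.9% were lower, and 6.75% with library totals. The light-strand count is near the 18.9%, and the numbers called were not compared between strands by a test.

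mt-Ti, which follows mt-Nd1, had 0.815, 1.10 and 0.540 CPM in mKO replicates 1 to 3, against 1.34, 3.34 and 10.5 CPM in WT replicates 1 to 3. The groups did not overlap on this scale but did with library totals, and WT replicate 3 held 375 counts beside 40 and 109 in the other WT libraries. The log2 fold change of -2.62 (SE 0.58, adjusted p = 0.00342) was -1.51 without that library, and the call was kept. mt-Tq, its neighbour on the opposite strand, had 2.36, 2.42 and 2.43 CPM in mKO replicates 1 to 3, against 5.11, 4.75 and 7.69 CPM in WT replicates 1 to 3, a log2 fold change of -1.28 (adjusted p = 0.000558). mt-Tm averaged 5.95 ± 1.24 CPM in mKO and 11.4 ± 0.292 CPM in WT libraries, a log2 fold change of -0.94 (adjusted p = 0.00075).

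Further along, mt-Tw, the most abundant tRNA row in WT libraries, had 8.10, 5.81 and 5.31 CPM in mKO replicates 1 to 3, against 22.1, 12.9 and 18.1 CPM in WT replicates 1 to 3. All mKO values lay below all WT values, with a log2 fold change of -1.46 (adjusted p = 0.00016). mt-Tt had 3.21, 2.24 and 2.67 CPM in mKO replicates 1 to 3, against 9.05, 6.46 and 9.20 CPM in WT replicates 1 to 3, a log2 fold change of -1.60 (adjusted p = 6.91e-05).

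**Figure D4:**
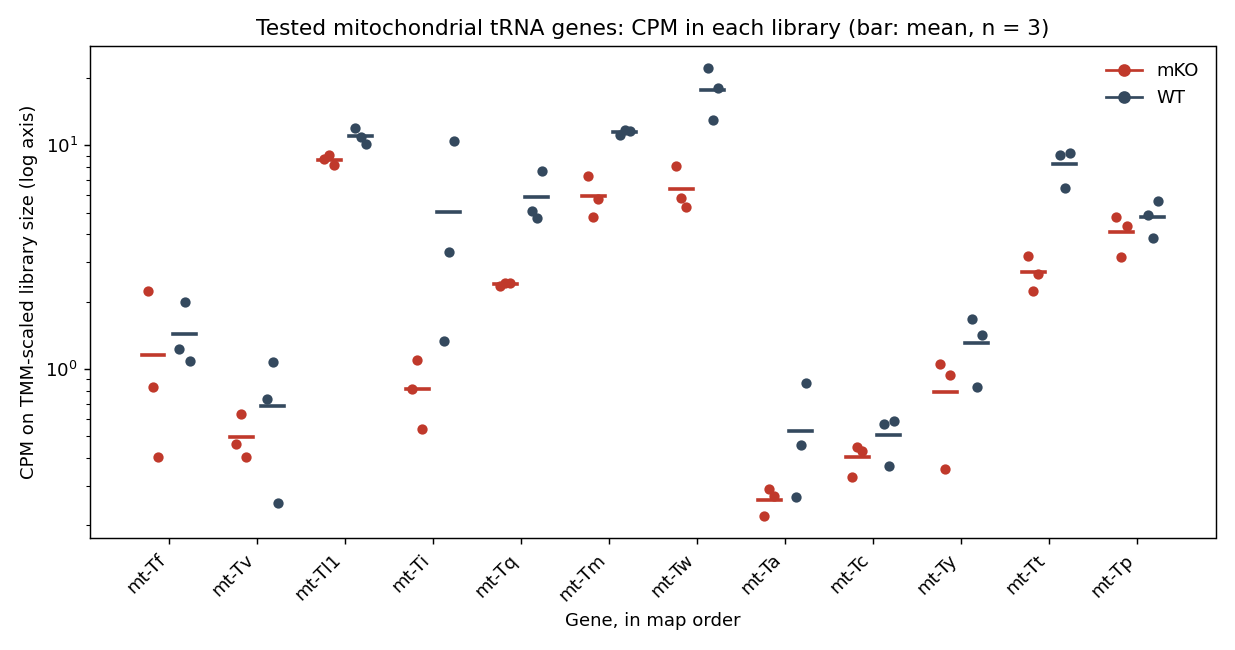
CPM on the TMM-scaled library size (log axis) of the 12 tested tRNA genes in map order; each point is a library (mKO left, WT right) and each bar a mean of 3. The groups are apart for mt-Tl1, mt-Ti, mt-Tq, mt-Tm, mt-Tw and mt-Tt and overlap for the other 6.

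The tRNAs with most counts that were not called are mt-Tl1 and mt-Tp. mt-Tl1, which lies directly before mt-Nd1, had 8.67, 9.04 and 8.20 CPM in mKO replicates 1 to 3, against 11.9, 10.9 and 10.1 CPM in WT replicates 1 to 3. The groups did not overlap on this scale but overlapped with library totals, and the log2 fold change of -0.34 (SE 0.14) had an adjusted p of 0.0638. mt-Tp, which abuts mt-Tt on the opposite strand, had 4.80, 3.16 and 4.37 CPM in mKO replicates 1 to 3, against 4.91, 3.86 and 5.62 CPM in WT replicates 1 to 3. Its values overlapped, with a log2 fold change of -0.22 (SE 0.21, adjusted p = 0.443). With library totals the fitted values of mt-Tl1 and mt-Tp were 0.12 and 0.24, and neither was called.

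The other tested tRNAs rested on few counts. mt-Tf, mt-Tv, mt-Ta, mt-Tc and mt-Ty had 10 to 101 counts in each mKO library and 8 to 65 in each WT library, log2 fold changes of -0.30 to -1.04 with SE of 0.42 to 0.51, and no call. For mt-Tf, mKO replicate 1 held 101 counts and the other mKO libraries 37 and 15.

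Another 10 tRNAs did not pass the filter. mt-Tn had 1 count in mKO libraries together and 22 in WT libraries together, and mt-Ts1, mt-Tr and mt-Th had 0 counts in mKO libraries, against 7, 6 and 2 counts in WT libraries. mt-Te had 9 counts in mKO and 28 in WT libraries, mt-Tl2 had 10 in mKO and 5 in WT libraries, and mt-Tg had 3 in mKO and 1 in WT libraries. mt-Td, mt-Tk and mt-Ts2 had no count in any library, which at 3 counts allows up to 0.0661 to 0.0809 CPM in mKO and 0.0839 to 0.1 CPM in WT libraries, counting error only. mt-Ts1, mt-Td, mt-Tk, mt-Tg and mt-Tr, like mt-Atp8, lie between members copied in the chromosome 1 block.

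Ratios within a library do not depend on the scaling between libraries. The tRNA counts were 0.136%, 0.106% and 0.102% of the mRNA counts in mKO replicates 1 to 3, against 0.109%, 0.0890% and 0.111% in WT replicates 1 to 3. The ranges overlapped, and the log2 difference of 0.15 gave an exact two-sided permutation p of 0.6. Leaving out a library gave 0.020 (without mKO replicate 1) to 0.23 (without mKO replicate 3), and 0.048 without WT replicate 2. A difference between the classes was thus not detectable in these libraries.

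The light-strand genes took a larger part of the mitochondrial counts in mKO libraries. Their counts were 2.35%, 2.33% and 2.91% of the heavy-strand counts in mKO replicates 1 to 3, against 1.95%, 1.89% and 1.92% in WT replicates 1 to 3. The groups did not overlap, the log2 difference was 0.39, and the exact two-sided permutation test gave p = 0.1, the smallest possible. mKO replicate 3 was the highest, and without it the difference was 0.28. Nearly all light-strand counts are mt-Nd6, which made up 2.44 ± 0.313% of mRNA counts in mKO and 1.87 ± 0.0286% in WT libraries (SD, n = 3 each).

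The counts of mt-Nd6 were also set against those of mt-Nd5, its neighbour on the opposite strand. They were 34.1%, 32.0% and 39.1% of those of mt-Nd5 in mKO replicates 1 to 3, against 34.3%, 36.1% and 39.0% in WT replicates 1 to 3. The ranges overlapped, with a log2 difference of -0.061 (exact two-sided permutation p = 0.6), a ratio chosen after the values were seen. Of the 12 heavy-strand mRNAs, mt-Nd5 had the smallest fitted fall, -0.72 beside -0.77 for mt-Nd6, so this ratio is given as a description.

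Unequal change within the mitochondrial pool was measured by the same fit with the summed mitochondrial counts as library size. On this scale mt-Co3 (-0.94, adjusted p = 5.06e-06), mt-Co2 (-0.53, adjusted p = 0.00598), mt-Nd1 (-0.48, adjusted p = 0.00158) and mt-Ti (-1.42, adjusted p = 0.026) were lower in mKO libraries than the pool as a whole. mt-Tl1 (0.81, adjusted p = 0.000259), mt-Tp (0.94, adjusted p = 0.00115), mt-Nd5 (0.44, adjusted p = 0.00207) and mt-Nd6 (0.39, adjusted p = 0.00744) were higher. Of these members, mt-Co3 and mt-Co2 have near-complete nuclear copies, and their counts are uncertain. The mt-Ti share of mitochondrial counts was 0.0027 ± 0.0010% in mKO and 0.0073 ± 0.0067% in WT libraries (SD, n = 3 each). These shares overlapped between the groups (exact two-sided permutation p = 0.4 on log2 shares). WT replicate 3 held 375 mt-Ti counts, beside 40 and 109 in the other WT libraries. The backgrounds on this scale were 1.56% of all genes lower and 84.5% higher, since most nuclear genes rose relative to mitochondrial RNA. The adjustment ran over all 16650 genes, most of them called, so it is weak for the members. No adjustment over the members alone was made. mt-Co1, most of the pool, was at -0.026 and cannot move far from it. With mt-Co1 left out of the library size, 7 members were lower, adding mt-Nd2, mt-Nd3 and mt-Tt, and the number higher was again 4. The added calls had adjusted p of 0.0408, 0.0411 and 0.0372 in that order, by the same weak adjustment.

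**Figure D5:**
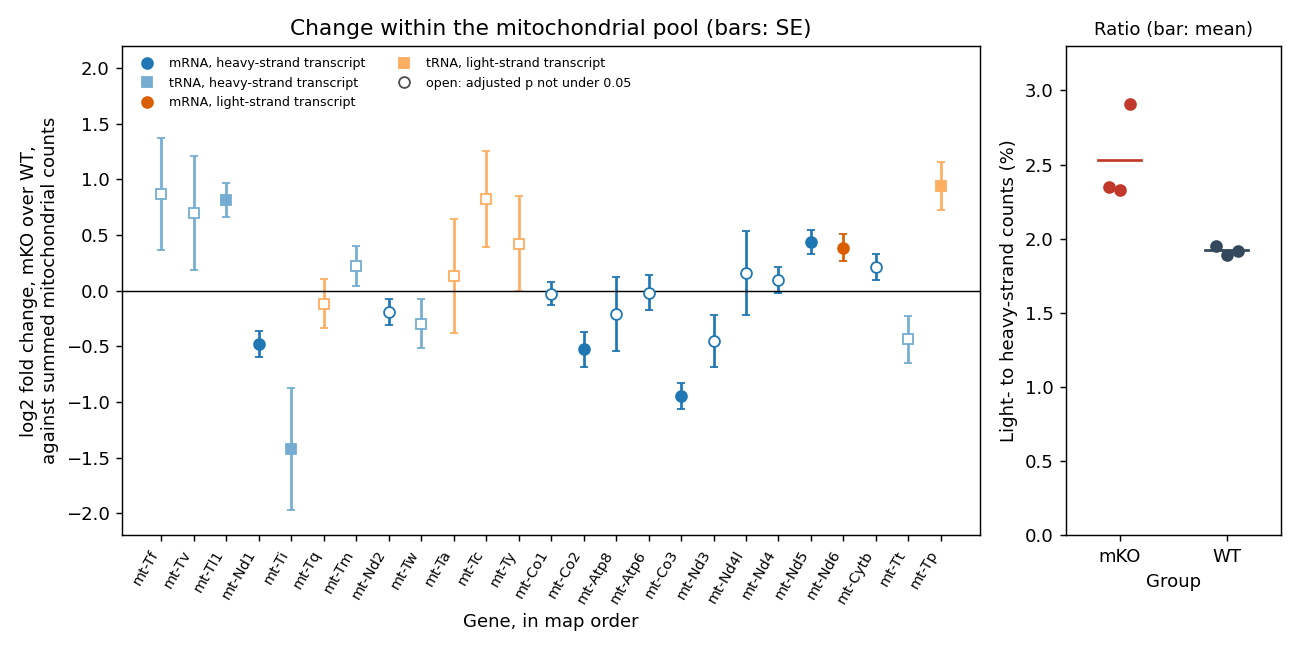
Left, log2 fold change, mKO over WT, of the 25 tested members against the summed mitochondrial counts, with standard errors and open symbols for members not called; right, light-strand counts as percent of heavy-strand counts in each library, with means. mt-Co3 at -0.94 and mt-Ti at -1.42 stand below the pool, mt-Tl1 at 0.81 and mt-Tp at 0.94 above it, and the 3 mKO ratios lie above the 3 WT ratios. The shares behind the mt-Ti value overlapped between the groups.

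Nuclear genes encode the remaining subunits of the same complexes, and their mRNAs were lower too, with smaller median falls. Of 36 nuclear complex I subunits, 30 were lower in mKO libraries, as were 9 of 9 of complex III, 10 of 12 of complex IV and 14 of 15 of complex V. The share of all genes called lower was 18.9%. Median log2 fold changes were -0.62, -0.56, -0.66 and -0.75 in that order, beside -1.06, -0.95, -1.69 and -1.27 for the mitochondrial members of the same complexes. The mitochondrial median of complex IV is the value of mt-Co2, and that of complex V rests on mt-Atp6 and mt-Atp8, all low in counts. The 4 subunits of complex II, which has no mitochondrially encoded part, were all lower, with a median of -0.70. With library totals the calls lower were 10, 2, 3 and 7 for the 4 complexes and 1 for complex II, where 6.75% of all genes were lower. On that scale the medians of the 4 complexes were -0.15, -0.095, -0.19 and -0.28, beside an all-gene median of 0.49. Among those of lowest p, with larger falls than their medians, Ndufs1 of complex I had 399 ± 36.1 CPM in mKO and 853 ± 75.2 CPM in WT libraries, a log2 fold change of -1.10, a larger fitted fall than those of mt-Nd4, mt-Nd4l, mt-Nd5 and mt-Nd6. Cox4i1 of complex IV had 325 ± 56.1 CPM in mKO and 649 ± 21.7 CPM in WT libraries.

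The ratio of mitochondrial to nuclear subunit mRNA counts was lower in every mKO library than in every WT library. The 13 mitochondrial mRNAs had 1.23, 1.55 and 1.48 times the counts of the 72 nuclear subunits in mKO replicates 1 to 3, against 2.02, 1.79 and 2.04 times in WT replicates 1 to 3. The groups did not overlap, the log2 difference was -0.46, and the exact two-sided permutation test gave p = 0.1, the smallest possible. Complex by complex the log2 difference was -0.43 for complex I, -0.36 for complex III, -0.46 for complex IV and -0.44 for complex V, with no overlap of groups in any of them. The complex V ratio averaged only 0.0012 in mKO and 0.0016 in WT libraries, since mt-Atp6 and mt-Atp8 had few counts. For the 4 complexes together, the log2 difference was -0.50 with only the 4 mRNAs that share no window with nuclear transcripts. Without mt-Co1 it was -0.38. This ratio was chosen after other values were seen.

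Genes that make and mature mitochondrial RNA are nuclear, and a minority of them were called. Over 6 lists of 108 genes, covering transcription, RNA processing and stability, tRNA modification, rRNA modification, replication and regulators, 27 were lower, 8 were higher and 73 were not called, with a median log2 fold change of -0.16, where 18.9% of all genes were lower and 18.2% higher. With library totals 7 were lower and 45 higher, beside all-gene shares of 6.75% lower and 49.0% higher. The medians of the 6 lists lay between -0.32 and -0.0027 on the TMM scale, below the all-gene median of 0.023, and between 0.15 and 0.46 with library totals, below the all-gene median of 0.49.

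The transcription list held 2 lower genes of 10, near the 18.9% of all genes, and none higher, where 18.2% of all genes were higher. With library totals it held none lower and 4 higher, where 6.75% of all genes were lower and 49.0% higher. On the TMM scale, without mKO replicate 2 or WT replicate 3, it held 1 lower gene. Tfb2m, the factor that melts the promoter for the mitochondrial RNA polymerase, averaged 33.9 ± 1.42 CPM in mKO and 45.4 ± 5.02 CPM in WT libraries (log2 fold change -0.42, adjusted p = 0.0104), and Mterf2, a termination factor family member, was at -0.55 (adjusted p = 0.0157). Neither was called with library totals.

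The RNA processing and stability list had most calls of the 6, with 10 of 22 lower, 1 higher and a median of -0.27. Of all genes, 18.9% were lower and 18.2% higher. With library totals 2 were lower and 8 higher, with a median of 0.20, where 6.75% of all genes were lower and 49.0% higher. Lrpprc and Slirp, which form the complex that stabilises mitochondrial mRNAs and supports their polyadenylation, were the genes lower on both scales. Lrpprc averaged 63.5 ± 1.07 CPM in mKO and 139 ± 1.07 CPM in WT libraries, a log2 fold change of -1.13 (SE 0.10, adjusted p = 4.61e-06). Slirp averaged 32.9 ± 3.43 CPM in mKO and 68.5 ± 6.75 CPM in WT libraries, a log2 fold change of -1.06 (SE 0.12, adjusted p = 2.95e-05). Hsd17b10, a subunit of mitochondrial RNase P, and Fastkd2, an RNA-binding protein of mitochondrial RNA granules, were lower at -0.59 and -0.68 on the TMM scale and not called with library totals.

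In the tRNA modification list 4 of 23 genes were lower and 3 higher, with a median of -0.17, against 1 lower and 9 higher with library totals. These counts do not exceed the shares of all genes, 18.9% lower and 18.2% higher on the TMM scale and 6.75% lower and 49.0% higher with library totals. Trit1, which adds an isopentenyl group next to the anticodon of some tRNAs, rose to 21.5 ± 1.76 CPM in mKO libraries, against 10.2 ± 1.01 CPM in WT libraries (log2 fold change 1.08, adjusted p = 4.62e-05). Mettl8, which methylates cytosine in the anticodon loop of mitochondrial threonine and serine tRNAs, was higher at 0.67 (adjusted p = 0.00437). Dus2, a dihydrouridine synthase acting on tRNA, was lower at -1.15, and Mto1, which modifies the wobble uridine of mitochondrial tRNAs, was lower at -0.68. Mto1 was not called with library totals.

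The list for rRNA modification and ribosome assembly had 2 of 19 lower, Malsu1 at -0.72 and Gtpbp10 at -0.57, and none higher, a smaller share than the 18.9% of all genes. With library totals neither gene was called, and the list had none lower and 6 higher, where 6.75% of all genes were lower and 49.0% higher. Without WT replicate 3 it had 5 lower, and without mKO replicate 1 it had 4. The replication and nucleotide supply list had 6 of 19 lower and 2 higher, against 3 lower and 9 higher with library totals. Its calls higher did not exceed the shares of all genes, 18.2% on the TMM scale and 49.0% with library totals. The 2 calls higher became 0 or 1 when any library was left out. Its members of lowest p were Slc25a36, a pyrimidine nucleotide carrier, at -0.97, Mpv17, an inner membrane protein needed to keep mitochondrial DNA, at -0.93, and Rrm2b, a ribonucleotide reductase subunit, at -0.88, all 3 lower with library totals too. Among 15 regulators of mitochondrial biogenesis 3 were lower and 2 higher, near the shares of all genes, against 1 lower and 9 higher with library totals. Esrra, a nuclear receptor that activates oxidative metabolism genes, was lower at -0.86 and was called lower with library totals too, and Ppard, a fatty acid sensing nuclear receptor, was higher at 1.31. Mitochondrial DNA copy number was not measured.

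Markers of several cell types moved with the groups. Of 12 muscle fibre markers 8 were lower and 1 higher, with a summed level of 191397 to 226610 CPM in mKO and 301813 to 327072 CPM in WT libraries. Their median log2 fold change was -0.95, beside -1.06 for the tested mitochondrial members, and -0.48 with library totals. All 8 macrophage markers were higher, with 539 to 901 CPM in mKO and 259 to 312 CPM in WT libraries, and all 7 endothelial markers were lower, with 179 to 200 CPM in mKO and 301 to 386 CPM in WT libraries. Fibroblast and satellite cell markers had 2 of 6 and 2 of 4 higher, smooth muscle and pericyte markers 1 of 5 higher and 2 lower, erythroid markers 2 of 3 tested lower, and no adipocyte or Schwann cell marker was called. No marker of these lists was at 0 in all libraries. With library totals 6 muscle fibre, 3 endothelial, 2 erythroid and 1 smooth muscle or pericyte markers were lower. On that scale 1 muscle fibre, 8 macrophage, 5 fibroblast, 3 satellite cell, 2 smooth muscle or pericyte and 1 Schwann cell markers were higher. The shares of all genes were 18.9% lower and 18.2% higher on the TMM scale and 6.75% lower and 49.0% higher with library totals. The part of cell composition in the mitochondrial values was not tested.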

How the data were processed

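RNA from frozen gastrocnemius was extracted with Trizol and made into libraries with a NEBNext Ultra RNA kit, per the labels' protocols. Each library has a table of raw counts, whole numbers per Ensembl gene as deposited by the authors. STAR 2.5.2b, Subread 1.5.2 with featureCounts, Trimmomatic 0.36 and the GRCm38 build are named in the submitters' processing notes. Strand setting, pair counting and the handling of multi-mapping reads are not stated there. Of 49315 genes, 48970 had a symbol, and the coordinates of all 35 members matched the GENCODE M21 annotation.

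Counts were tested with edgeR 4.0.16 in R 4.3.3 (quasi-likelihood test, TMM factors, default expression filter by group, 16650 genes, Benjamini-Hochberg adjustment at 0.05, group as the only term), after a run on simulated data. The biological coefficient of variation was 16.1%. SE is that of the log2 fold change. Alternatives included DESeq2 1.42.0. Named genes are all members, Hnrnpu, their nuclear copies and up to 4 genes of lowest p per list. Members and lists were chosen with earlier results of these data known.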

Additional observations from a re-analysis of the deposited data

How the results depend on the processing

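The number of members called lower stayed within 15 to 19 over 12 alternatives, from 17 to 18 when a library was left out, and no member was called higher in any. No member called in the main fit changed direction in any alternative. With library totals the fitted values of mt-Tf, mt-Tv, mt-Tl1, mt-Tc and mt-Tp, which were not called, turned positive. On that scale the medians of the 6 lists of nuclear genes and the value of Hnrnpu also turned from negative to positive. With replicate number added as a block, the fit called 17 members lower, losing mt-Nd4l, and changed the direction of none. Same-numbered mKO and WT libraries did not deviate together (correlations of 0.018, -0.002 and 0.022), so the numbers were not taken as a pairing. mt-Nd4l also lost its call with library totals, with DESeq2 and without 5 of the 6 libraries in turn, at log2 fold changes of -0.52 to -1.16.

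On the log2 scale the mRNA share of counts differed by -0.70 and the tRNA share by -0.55 as percent of library totals, and by -1.16 and -1.01 as CPM on the TMM-scaled library size. The light-strand to heavy-strand difference of 0.39 was -0.061 for mt-Nd6 against mt-Nd5, and 0.28 to 0.45 when a library was left out. In the 6 lists of nuclear genes, library totals gave 7 lower and 45 higher in place of 27 and 8, and leaving out a library gave 21 to 30 lower and 5 to 9 higher, with 5 higher without mKO replicate 2 or WT replicate 1. Relative to the mitochondrial pool 4 members were lower, and 7 with mt-Co1 out of the library size. For these the cause was not tested. The planned ratios and share for rRNA were not run, because the rRNA genes were not analysed here. Low counts limit most tRNAs.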
